A study of Homo sapiens with 6 samples.

Results

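Aminoacyl-tRNA synthetases join each amino acid to its tRNA, and so supply the charged tRNAs that ribosomes read. Their transcripts were followed in BT-549 cells, an established human triple-negative breast cancer line, after silencing of IRF1, a transcription factor of the interferon response. The members were taken by gene symbol: every listed symbol that names a synthetase for an amino acid was kept, and a final 2 marks the mitochondrial enzyme. The rule used no measured value. It found 37 members among 37887 listed symbols, 20 cytosolic and 17 mitochondrial. The table uses older names, so that WARS, EPRS and RARS stand for the genes now called WARS1, EPRS1 and RARS1. The question was how silencing IRF1 changed the synthetase transcripts of both compartments. The study itself examined WARS among them.

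Most synthetases exist as separate cytosolic and mitochondrial enzymes encoded by different nuclear genes, whereas GARS and KARS serve both compartments from a single gene. In the cytosol, EPRS, IARS, LARS, QARS, MARS, KARS, RARS and DARS assemble with the scaffold proteins AIMP1, AIMP2 and EEF1E1 into the multisynthetase complex. WARS is known as an interferon-induced synthetase. Shortage of amino acids raises a set of cytosolic synthetases through the kinase GCN2 and the transcription factor ATF4. The list of that set used here also holds WARS. Synthetases also fall into class I and class II, which have unrelated catalytic folds.

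RNA was sequenced from 3 control and 3 IRF1shRNA cultures of BT-549. The control titles speak of a control shRNA, but in the series description all cells carry a tetracycline-inducible IRF1 shRNA. Control cultures received 0.1% DMSO and IRF1shRNA cultures received 500 ng/ml doxycycline, so that effects of doxycycline and of the shRNA cannot be told apart. If the control titles hold instead, the groups carry different shRNA vectors, and effects of the vector or line cannot be told apart from silencing. All cultures came from the same cell line, grown in triplicate, and the p-values measure only the spread between these cultures. In bulk RNA, fewer cells that express a gene and less RNA per cell cannot be told apart.

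Total counts ranged from 55143808 in IRF1shRNA replicate 2 to 160436234 in IRF1shRNA replicate 3, and a floor of 3 counts corresponded to 0.0182 to 0.0540 CPM. CPM relates the reads of a gene to the total of its library, here scaled by TMM to allow for differences in RNA composition. The targeted gene, IRF1, was at 45.3, 48.1 and 51.5 CPM in the controls and at 13.8, 14.9 and 14.6 CPM in the IRF1shRNA libraries, a log2 fold change of −1.74 ± 0.06 (SE; adjusted p = 4.53e-13). Adjusted p-values throughout are from the quasi-likelihood test of edgeR, adjusted by Benjamini-Hochberg over the 18851 genes tested, and differences are IRF1shRNA minus control. Of the markers of the line, VIM, FN1 and CD44 were abundant and lower in IRF1shRNA (log2 fold changes −0.56, −0.34 and −0.27), ESR1, PGR and EPCAM were near 0, and ERBB2 was at 50.8 and 36.4 CPM. Of 5 markers of other cell types, CD3E had at most 1 count in a library and PECAM1 stayed at or below 0.144 CPM. PTPRC averaged 0.526 CPM in controls and 0.481 CPM in IRF1shRNA. CD14 rose from 1.09 to 2.22 CPM and ALB from 0.0693 to 0.340 CPM. The part of these markers in the results was not tested.

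The start regions of the synthetase genes were read first, since both interferon factors and ATF4 act through short promoter motifs. RefSeq windows of 300 bases (GRCh38.p14, 250 before and 50 after an annotated start) were held for 30 of the 37 members. Those without a window included AARS2, DARS, LARS, VARS, VARS2 and YARS. The core of the interferon-stimulated response element (ISRE), taken as 2 copies of GAAA with any 2 bases between them on either strand, was present in 3.57% of 35116 windows of all genes. Among the members it was present at WARS and EARS2. WARS has 2 annotated starts, 980 bases apart on the minus strand, and they are shown because the motif lay in the downstream window only, at −55 relative to the start. Capitals mark the motif. The upstream window is chr14:100376278-100376577, the downstream window chr14:100375298-100375597, and the EARS2 stretch chr16:23557534-23557600. The EARS2 motif is in the reverse orientation and lay at −223 or −198, depending on which annotated start is used.
WARS upstream start: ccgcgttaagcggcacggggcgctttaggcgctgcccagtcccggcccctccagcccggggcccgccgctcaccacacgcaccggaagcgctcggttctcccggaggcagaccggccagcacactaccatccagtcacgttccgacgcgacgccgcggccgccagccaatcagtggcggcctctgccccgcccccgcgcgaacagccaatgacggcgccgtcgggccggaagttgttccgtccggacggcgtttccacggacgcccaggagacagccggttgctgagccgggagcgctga
WARS downstream start: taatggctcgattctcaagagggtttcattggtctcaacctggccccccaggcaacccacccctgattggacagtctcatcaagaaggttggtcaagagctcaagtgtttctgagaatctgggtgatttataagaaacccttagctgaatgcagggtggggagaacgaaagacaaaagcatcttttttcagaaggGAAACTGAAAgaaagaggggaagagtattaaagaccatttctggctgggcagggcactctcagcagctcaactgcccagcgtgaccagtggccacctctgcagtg
EARS2: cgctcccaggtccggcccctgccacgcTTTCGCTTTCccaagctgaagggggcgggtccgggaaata

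The core of the amino acid response element, TTGCATCA on either strand, was present in 0.866% of all windows and in those of 6 members, AARS, CARS, IARS, MARS, NARS and TARS. These stretches are shown with the motif in capitals because 6 of the 30 members with a window share this short sequence. TARS is at chr5:33440942-33440999 and MARS at chr12:57488039-57488096, both on the plus strand. On the minus strand, IARS is at chr9:92293678-92293735, CARS at chr11:3057393-3057450, AARS at chr16:70289661-70289718 and NARS at chr18:57621790-57621847. The NARS motif is in the reverse orientation. It begins 14 bases after the start, and the TARS motif begins 2 bases after its start. The CARS and MARS motifs begin at −2 and −4 and run across the start. A match is a description of these letters, and no binding was measured here.
TARS: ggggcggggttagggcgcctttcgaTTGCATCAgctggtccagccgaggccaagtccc
IARS: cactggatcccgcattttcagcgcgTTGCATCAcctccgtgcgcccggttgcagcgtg
CARS: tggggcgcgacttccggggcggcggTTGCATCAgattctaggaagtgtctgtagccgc
MARS: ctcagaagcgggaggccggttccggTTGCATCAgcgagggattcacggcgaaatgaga
AARS: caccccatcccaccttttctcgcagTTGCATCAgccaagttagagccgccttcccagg
NARS: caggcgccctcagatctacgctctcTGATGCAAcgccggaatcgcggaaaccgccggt

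Synthetase transcripts moved in both directions after IRF1 silencing, and none by more than 2-fold. EPRS, RARS and QARS of the multisynthetase complex rose most, and WARS fell most. Of 36 members tested, 14 rose and 5 fell, where 24.1% of all genes tested rose and 26.4% fell, while 17 did not pass the test. The 0 members that changed by more than 2-fold stand beside 7.86% of all genes. For 22 of the 36 members, all IRF1shRNA values lay on the same side of all control values, beside 56.8% of all genes tested. The median log2 fold change of the 36 was 0.04, against −0.0024 over all genes. The other member, VARS2, was not tested because it had 1, 1 and 0 counts in the controls and 2, 0 and 0 in the IRF1shRNA libraries, at or below the floor. VARS2 lies in the MHC region (chr6:30908242-30926459), and 21.99% of its exon bases overlap the gene GTF2H4 on the same strand.

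**Figure D1:**
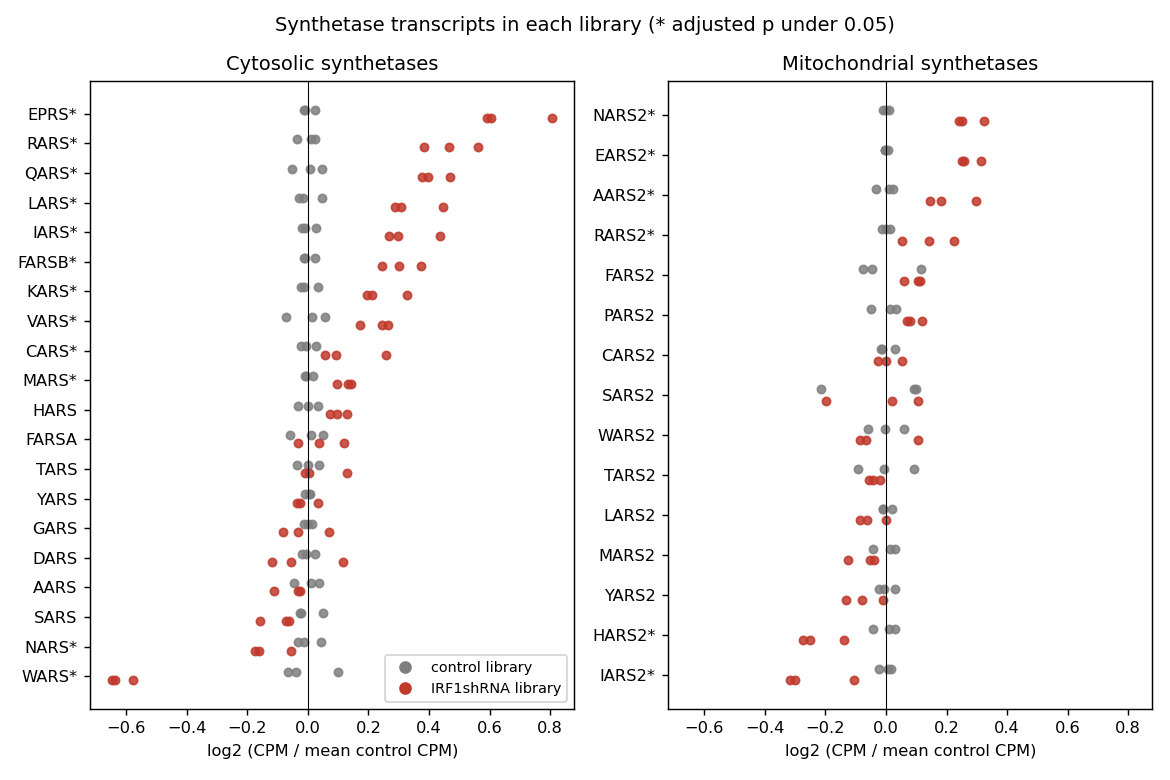
Each point is the CPM of a member in 1 library as log2 of its ratio to the mean of the 3 control libraries, for 20 cytosolic and 15 mitochondrial members, ordered by log2 fold change. Grey points are control and red points IRF1shRNA libraries, and an asterisk marks an adjusted p under 0.05. EPRS at the top and WARS at the bottom of the cytosolic members show no overlap between the groups.

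WARS, the cytosolic tryptophanyl-tRNA synthetase (chr14:100333788-100376805), was the member with the largest decrease. Its level in the controls was 213.5, 217.5 and 239.7 CPM, and in the IRF1shRNA libraries 142.8, 149.9 and 143.6 CPM, in each case in the order of replicates 1 to 3 as in all such lists here. All IRF1shRNA libraries lay well below all controls, at 65.0% of control on average, and control 3 was the highest of the 6. The mean was 223.6 ± 14.1 CPM in controls and 145.4 ± 3.89 CPM in IRF1shRNA (SD, n = 3 each), and the log2 fold change was −0.62 ± 0.05 (SE; adjusted p = 8.61e-09). Over the alternatives it ranged from −0.66 without control 1 to −0.57 without control 3. WARS made up 3.74%, 3.85% and 4.20% of the summed cytosolic synthetase CPM in the controls and 2.32%, 2.23% and 2.30% in the IRF1shRNA libraries. Of its exon bases, 10.57% overlap WDR25 and AL157871.4 on the opposite strand. The sources used here do not say whether strand was used in counting, and counts per gene do not tell which of the 2 starts shown above was used.

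IDO1, an interferon gene whose enzyme breaks tryptophan down, also fell. It went from 5.87 ± 1.18 to 0.903 ± 0.278 CPM, a log2 fold change of −2.75 ± 0.18. WARS and IDO1 both act on tryptophan, and both passed the test in the downward direction.

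The mitochondrial tryptophan enzyme showed no such decrease. WARS2 was at 21.3, 22.3 and 20.5 CPM in the controls and at 20.4, 23.0 and 20.1 CPM in IRF1shRNA, so the groups overlapped. Its log2 fold change was −0.02, with a 95% interval of −0.16 to 0.12 (adjusted p = 0.856), and its sign turned under several alternatives. The log2 ratio of WARS to WARS2 within a library was 3.32, 3.29 and 3.55 in the controls and 2.81, 2.71 and 2.84 in IRF1shRNA, and the groups did not overlap. The difference between both log2 fold changes was not tested by a model.

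**Figure D2:**
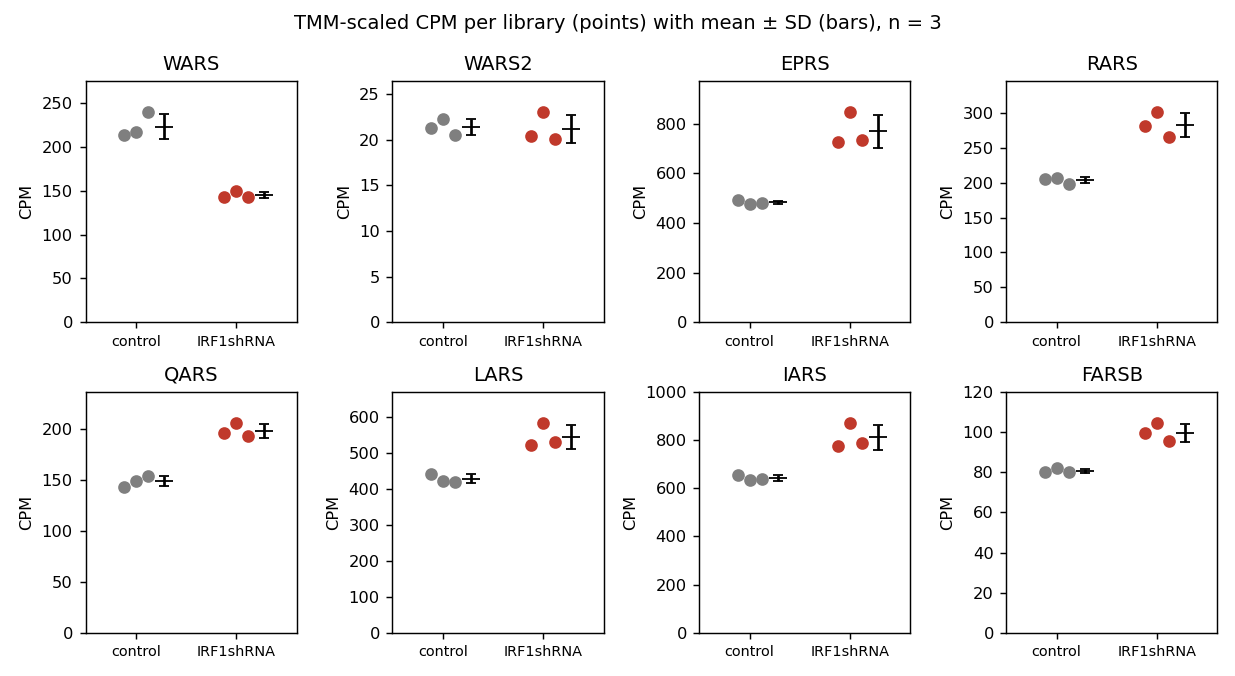
TMM-scaled CPM (y axis, from 0, a separate scale for each gene) of 8 members in each control (grey) and IRF1shRNA (red) library, with the mean ± SD of 3 libraries as a black bar. WARS is lower and EPRS, RARS, QARS, LARS, IARS and FARSB higher in every IRF1shRNA library than in any control, whereas the WARS2 groups overlap.

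Of the 8 enzymes of the multisynthetase complex, 7 rose, none fell and DARS did not pass the test, where 24.1% of all genes tested rose. Their median log2 fold change was 0.34, against −0.0024 over all genes. The 12 cytosolic members outside the complex showed 3 that rose, 2 that fell and 7 that did not pass, shares near or below those of all genes (24.1% and 26.4%), with a median of 0.02. MARS no longer passed without control 2 or without IRF1shRNA 3, which left 6 of the 8 enzymes. The difference between enzymes inside and outside the complex was not tested.

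EPRS joins both glutamate and proline to their tRNAs as a single fused protein (chr1:219968601-220046658, minus strand). It was at 491.4, 478.4 and 479.9 CPM in the controls and at 727.4, 845.9 and 735.0 CPM in the IRF1shRNA libraries. The controls lay within a narrow band and every IRF1shRNA library stood far above it, with replicate 2 the highest. The mean went from 483.2 ± 7.15 to 769.4 ± 66.4 CPM, 1.59 times the control, and the log2 fold change was 0.67 ± 0.05 (adjusted p = 1.28e-08), or 0.60 without IRF1shRNA 2. Its share of the summed cytosolic synthetase CPM was between 8.41% and 8.60% in the controls and between 11.8% and 12.6% in IRF1shRNA.

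RARS, the arginine enzyme (chr5:168486445-168519299), was at 205.3, 207.1 and 198.5 CPM in the controls and at 281.5, 300.9 and 265.7 CPM in IRF1shRNA. Its log2 fold change was 0.47 ± 0.05 (adjusted p = 2.24e-07). The groups were far apart, as they were for QARS, the glutamine enzyme (chr3:49095932-49105135). QARS was at 143.2, 149.0 and 153.2 CPM in the controls and at 195.4, 205.5 and 192.8 CPM in IRF1shRNA. The QARS log2 fold change was 0.41 ± 0.04 (adjusted p = 3.97e-07).

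The branched-chain amino acids leucine and isoleucine are charged by LARS and IARS, which rose by similar amounts. LARS (chr5:146113038-146182660) was at 441.7, 422.9 and 418.6 CPM in the controls and at 521.6, 582.4 and 529.7 CPM in IRF1shRNA, a log2 fold change of 0.35 ± 0.05 (adjusted p = 9.36e-06). IARS (chr9:92210207-92293756) had the highest mean CPM of all members over the 6 libraries, at 654.1, 633.8 and 638.4 CPM in the controls and 773.6, 869.7 and 788.6 CPM in IRF1shRNA, a log2 fold change of 0.34 ± 0.05 (adjusted p = 1.48e-05). Neither gene showed any overlap between the groups. VARS, which charges valine and lies outside the complex, rose by less, with a log2 fold change of 0.23 ± 0.05 (adjusted p = 4.16e-04).

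KARS, the lysine enzyme of both compartments (chr16:75627474-75648643), was at 218.8, 225.7 and 217.3 CPM in the controls and at 252.5, 276.7 and 255.4 CPM in IRF1shRNA. The groups did not overlap, and the log2 fold change was 0.24 ± 0.04 (adjusted p = 1.79e-04). MARS, which charges both initiator and elongator methionine tRNAs in the cytosol, rose by the least of the 7, with 0.12 ± 0.04 (adjusted p = 0.0158). Of the exon bases of MARS, 12.44% overlap DDIT3 and ARHGAP9 on the opposite strand, and DDIT3 itself fell. DARS, the aspartate enzyme, stood at 64.3 ± 0.994 CPM in controls and 63.6 ± 5.43 CPM in IRF1shRNA. Its log2 fold change was −0.02, with a 95% interval of −0.13 to 0.09, and its sign turned under other scalings.

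None of the 3 scaffold genes of the complex rose and 2 fell, where 24.1% of all genes tested rose and 26.4% fell. AIMP1 fell from 98.9 ± 4.85 to 88.5 ± 2.94 CPM (log2 fold change −0.16 ± 0.05, adjusted p = 0.00715) and EEF1E1 from 12.1 ± 1.02 to 10.5 ± 0.407 CPM (−0.21 ± 0.08, adjusted p = 0.0264). AIMP2 had a log2 fold change of −0.11 ± 0.06 (adjusted p = 0.115). Of EEF1E1 exon bases, 18.65% overlap EEF1E1-BLOC1S5 on the same strand. On the opposite strand, 28.94% of AIMP2 exon bases overlap EIF2AK1 and 11.63% of AIMP1 exon bases overlap TBCK. With library size as the only scaling, none of the 3 scaffolds passed the test, and EEF1E1 did not pass with upper quartile scaling or without control 1 or IRF1shRNA 3.

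**Figure D3:**
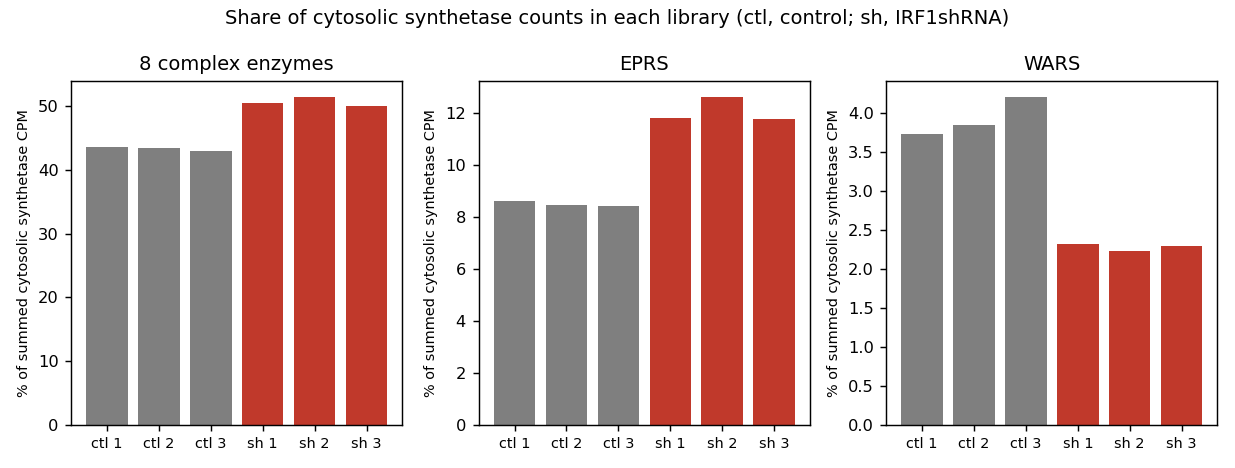
Share of the summed CPM of the 20 cytosolic members taken by the 8 complex enzymes, by EPRS and by WARS in each library (y axes in percent, from 0; grey, control; red, IRF1shRNA). The complex enzymes took 43.6%, 43.4% and 42.9% in the controls and 50.4%, 51.3% and 50.02% in IRF1shRNA.

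The summed level of the cytosolic members was higher in IRF1shRNA, while the 12 outside the complex had a median log2 fold change of 0.02. The 20 cytosolic members summed to 5716, 5650 and 5703 CPM in the controls and to 6160, 6718 and 6252 CPM in IRF1shRNA, without overlap. The complex enzymes summed to 2491, 2452 and 2446 CPM in the controls and to 3105, 3450 and 3127 CPM in IRF1shRNA. IRF1shRNA replicate 2 was the highest of its group in both sums. It was the highest IRF1shRNA library for 16 of 20 cytosolic members and for 39.6% of all genes tested, and it was also the shallowest library. Without it, 17 of the 19 members that passed the test still passed, and CARS and RARS2 did not.

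Outside the complex, the other cytosolic members that rose were FARSB, VARS and CARS. FARSB encodes the beta subunit of phenylalanyl-tRNA synthetase (chr2:222570536-222656337) and was at 79.9, 81.9 and 80.0 CPM in the controls and at 99.3, 104.4 and 95.5 CPM in IRF1shRNA. The groups were well apart, with a log2 fold change of 0.31 ± 0.04 (adjusted p = 1.37e-05). Its partner FARSA, the catalytic alpha subunit, overlapped between the groups, with 112.1 ± 4.28 and 115.5 ± 6.07 CPM and a log2 fold change of 0.04 (95% interval −0.06 to 0.14). The difference between both subunits was not tested.

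CARS, the cysteine enzyme (chr11:3000922-3057613), had the lowest mean CPM of the cytosolic members. It was at 55.7, 57.5 and 56.3 CPM in the controls and at 58.8, 67.5 and 60.3 CPM in IRF1shRNA, where replicate 2 stood above the others. The log2 fold change was 0.14 ± 0.05 (adjusted p = 0.0318), and the test was no longer passed without IRF1shRNA 2 (0.08, adjusted p = 0.157) or without any of the 3 controls.

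NARS, the asparagine enzyme, was the other cytosolic member that fell. Its level went from 305.2 ± 8.36 to 278.8 ± 12.9 CPM, a log2 fold change of −0.13 ± 0.04 (adjusted p = 0.0213). The call was lost with library size as the only scaling (−0.08, adjusted p = 0.128) and with upper quartile scaling (−0.09, adjusted p = 0.112). It was also lost without control 1, control 2, IRF1shRNA 1 or IRF1shRNA 3.

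GARS, the glycine enzyme of both compartments (chr7:30594681-30634033), was the most abundant member per length of transcript, at 169 CPM per kilobase of exon in controls. It was at 709.3, 695.3 and 701.6 CPM in the controls and at 662.8, 736.6 and 686.0 CPM in IRF1shRNA. The IRF1shRNA libraries lay on both sides of the controls, and the log2 fold change was −0.01 with a 95% interval of −0.11 to 0.08. The next cytosolic levels per kilobase in controls were SARS at 89.1 ± 2.63, EPRS at 88.7 ± 1.31, IARS at 86.8 ± 1.44 and AARS at 83.7 ± 2.48 (SD, n = 3), and the library values of neighbours among these 4 overlapped. The lowest were DARS at 16.0 ± 0.248 and CARS at 5.63 ± 0.0953 CPM per kilobase.

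The other cytosolic members did not pass the test. HARS, the histidine enzyme, came nearest among those with a positive estimate, from 141.1 ± 3.15 to 151.1 ± 2.96 CPM without overlap between the groups (log2 fold change 0.10 ± 0.04, adjusted p = 0.0527). It passed under 6 of 13 alternatives, among them DESeq2 (adjusted p = 0.0402). SARS, the serine enzyme, went from 341.6 ± 10.1 to 319.1 ± 11.5 CPM (−0.10 ± 0.04, adjusted p = 0.0708). The log2 fold changes of AARS, TARS and YARS were −0.06, 0.04 and −0.01. Of the 6 members with an amino acid response motif, CARS, IARS and MARS thus rose, NARS fell, and AARS and TARS did not pass. Over all genes tested, 24.1% rose and 26.4% fell. The calls of CARS, MARS and NARS were each lost when some single libraries were left out.

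**Figure D4:**
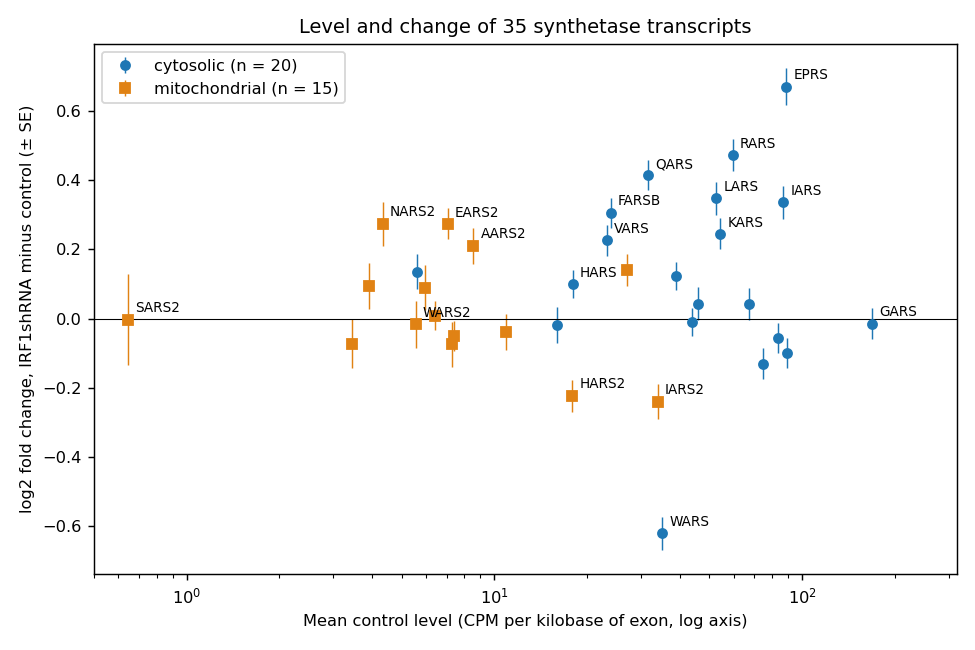
Mean control level in CPM per kilobase of exon (x axis, log scale) against the log2 fold change ± SE (y axis, IRF1shRNA minus control) of 35 members, cytosolic as blue circles and mitochondrial as orange squares. Cytosolic members sit mostly to the right of the mitochondrial ones, and the members that changed most, EPRS upward and WARS downward, lie at intermediate to high levels.

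Divided by catalytic class, 7 of 9 cytosolic class I members rose, and WARS fell (median log2 fold change 0.23), where 24.1% of all genes rose and 26.4% fell. Among the class I members that rose, IARS, LARS, MARS, QARS and RARS are also enzymes of the complex counted above. Without control 2, 5 class I members rose. Of the 10 class II members, KARS and FARSB rose and NARS fell, while 7 did not pass (median 0.01), shares below those of all genes. With library size only or with upper quartile scaling, 3 class II members rose and none fell, and none fell without control 1, control 2, IRF1shRNA 1 or IRF1shRNA 3. EPRS holds both classes in a single protein and was left out of this count. Of 12 cytosolic synthetases known as targets of the amino acid response, 5 rose, 2 fell and 5 did not pass (median 0.02). CARS and the complex enzymes EPRS, IARS, LARS and MARS rose, and WARS and NARS fell. With library size only or upper quartile scaling 1 of the 12 fell, as without control 1, control 2, IRF1shRNA 1 or IRF1shRNA 3. Without control 2 only 3 rose. Of the 8 others, 5 rose, among them KARS, QARS and RARS of the complex, and none fell (median 0.24). The median over all genes was −0.0024, and these differences between lists were not tested.

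Mitochondrial members changed in both directions. Of 16 tested, 4 rose, 3 fell and 9 did not pass, beside 24.1% and 26.4% of all genes, with a median log2 fold change of −0.01. In 8 of them the groups did not overlap, beside 56.8% of all genes, so these counts were near or below the shares over all genes. Their summed level was 688.7, 692.0 and 700.5 CPM in the controls and 644.9, 689.2 and 646.5 CPM in IRF1shRNA, where replicate 2 reached into the range of the controls. They made up 10.8% to 10.9% of all synthetase CPM in the controls and 9.30% to 9.48% in IRF1shRNA.

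IARS2, the mitochondrial isoleucine enzyme (chr1:220094102-220148041), fell and was the most abundant mitochondrial member at 34.0 CPM per kilobase of exon in controls. It was at 143.1, 139.4 and 142.0 CPM in the controls and at 113.5, 131.5 and 114.9 CPM in IRF1shRNA. All 3 IRF1shRNA libraries were lower, with replicate 2 close to the controls, and the log2 fold change was −0.24 ± 0.05 (adjusted p = 8.14e-04). IARS2 lies on chromosome 1 near EPRS, the member that rose most.

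HARS2, the mitochondrial histidine enzyme, fell from 67.0 ± 1.79 to 57.5 ± 2.98 CPM (log2 fold change −0.22 ± 0.05, adjusted p = 5.76e-04). HARS and HARS2 are read head to head on chromosome 5 from starts 85 bases apart, and their start windows share 184 bases. The HARS window (chr5:140691321-140691620, minus strand, GRCh38.p14) is shown because a single stretch of DNA faces both genes, and capitals mark the shared bases.
HARS: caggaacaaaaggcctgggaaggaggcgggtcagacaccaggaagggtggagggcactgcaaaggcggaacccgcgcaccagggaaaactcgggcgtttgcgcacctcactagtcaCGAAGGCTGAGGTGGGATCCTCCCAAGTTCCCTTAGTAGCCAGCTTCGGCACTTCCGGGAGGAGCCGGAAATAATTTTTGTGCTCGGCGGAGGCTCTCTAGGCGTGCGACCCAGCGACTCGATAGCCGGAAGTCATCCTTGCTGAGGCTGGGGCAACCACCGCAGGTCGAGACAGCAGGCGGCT
The log2 ratio of HARS to HARS2 CPM within a library was 1.07 ± 0.01 in controls and 1.40 ± 0.05 in IRF1shRNA (SD, n = 3), without overlap. Of HARS2 exon bases, 11.7% overlap HARS on the opposite strand.

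The mitochondrial members that rose did so by small amounts. NARS2, for asparagine, rose from 13.7 ± 0.0934 to 16.5 ± 0.526 CPM (log2 fold change 0.27 ± 0.06, adjusted p = 0.00152). EARS2, for glutamate, rose from 40.5 ± 0.153 to 48.9 ± 1.16 CPM (0.27 ± 0.04, adjusted p = 6.10e-05), so that of the 2 members with an ISRE core in a start window, WARS fell and EARS2 rose. AARS2, for alanine, rose by 0.21 ± 0.05 (adjusted p = 0.00254). RARS2, for arginine, rose by 0.14 ± 0.05 (adjusted p = 0.0179) on the log2 scale and did not pass without control 2, IRF1shRNA 1 or IRF1shRNA 2.

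The remaining mitochondrial members had log2 fold changes between −0.07 and 0.09. FARS2 and PARS2, for phenylalanine and proline, were both at 0.09, CARS2 was at 0.01, TARS2 at −0.04, LARS2 at −0.05, and MARS2 and YARS2 at −0.07. SARS2, the mitochondrial serine enzyme (chr19:38915266-38930896), was the lowest member that could be tested. It was at 1.801, 2.23 and 2.24 CPM in the controls and at 2.12, 1.82 and 2.25 CPM in IRF1shRNA, so the groups overlapped. The 95% interval of its log2 fold change, −0.28 to 0.28, was wider than for any other member. On the same strand, 46.18% of its exon bases overlap AC011455.2, so its level is uncertain.

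**Figure D5:**
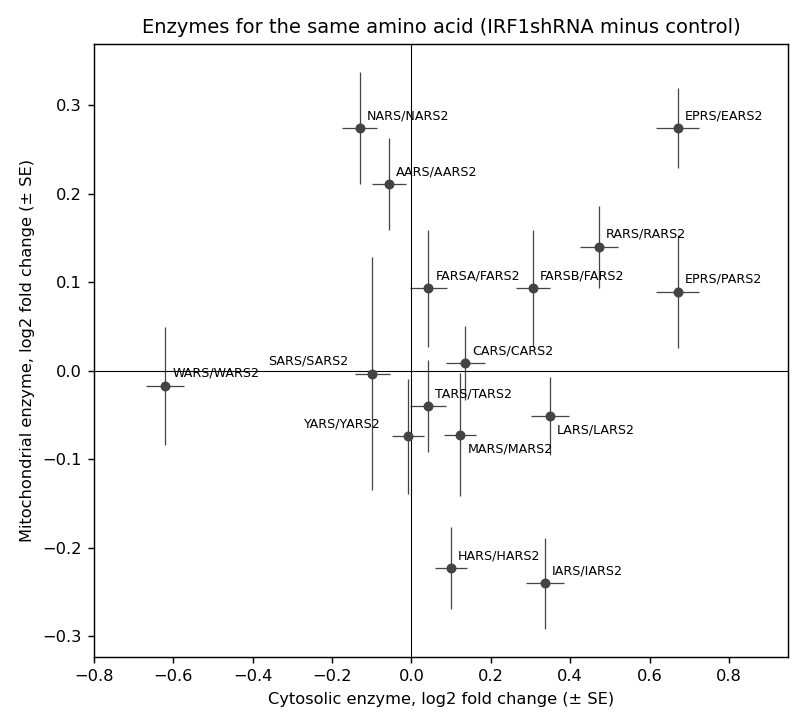
Log2 fold change ± SE of the cytosolic (x axis) against the mitochondrial (y axis) enzyme for the same amino acid, 16 pairs. EPRS appears with both EARS2 and PARS2, and FARS2 with both FARSA and FARSB. WARS/WARS2 lies far to the left at a mitochondrial value of −0.02, and IARS/IARS2 lies to the right and lowest.

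Cytosolic and mitochondrial enzymes for the same amino acid were then set side by side. Over 17 pairs, both members rose in 2, EPRS with EARS2 and RARS with RARS2, and in none did both fall. In 2 pairs they passed the test in opposite directions. IARS rose while IARS2 fell, and NARS fell while NARS2 rose, the latter with the limits given for NARS. The cytosolic enzyme alone passed in 6 pairs and the mitochondrial enzyme alone in 3 pairs, and neither passed in 4 pairs. Among all single genes tested, 24.1% rose and 26.4% fell. No counts were made for pairs of other genes, so these pair counts have no matching reference.

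The log2 ratio of cytosolic to mitochondrial CPM within a library needs no scaling between libraries. It did not overlap between the groups in 13 of 17 pairs, of which 10 were higher and 3 lower in IRF1shRNA. For single genes, the groups did not overlap in 56.8% of all genes tested. No such share was computed for ratios of other gene pairs, so the count of 13 has no matching reference. The pairs are also not independent, since some share EPRS and others share FARS2. The IARS to IARS2 ratio was 2.18 ± 0.01 in controls and 2.76 ± 0.03 in IRF1shRNA, and the EPRS to PARS2 ratio was 5.11 ± 0.06 and 5.69 ± 0.14. The 3 ratios that were lower were WARS to WARS2, NARS to NARS2 (4.48 ± 0.03 and 4.08 ± 0.10) and AARS to AARS2 (3.36 ± 0.02 and 3.09 ± 0.08). These are ratios of CPM without regard to length and were not tested.

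Genes that handle tRNAs or charged tRNAs beside the synthetases were taken from a list of 13. Of these, 7 rose, none fell and 6 did not pass, beside 24.1% and 26.4% of all genes that rose and fell, with a median log2 fold change of 0.16. Without control 1 or without IRF1shRNA 1, 5 rose. TARSL2, a threonyl-tRNA synthetase-like gene outside the symbol rule, was at 3.15, 3.08 and 2.96 CPM in the controls and at 6.19, 5.69 and 5.73 CPM in IRF1shRNA, and its log2 fold change of 0.94 ± 0.09 (adjusted p = 1.09e-07) exceeded that of every member. DTD2 and AARSD1, which remove wrongly attached amino acids from tRNAs, rose by 0.55 ± 0.09 and 0.54 ± 0.17. Of DTD2 exon bases, 16.26% overlap AL139353.1 on the same strand. AARSD1 was near 1 CPM, did not pass without control 1 or IRF1shRNA 1, and shares 34.21% of its exon bases with another gene on the same strand.

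PSTK, which acts on the tRNA for selenocysteine, rose by 0.41 ± 0.11, and GATC, a subunit of the amidotransferase that makes mitochondrial glutaminyl-tRNA, by 0.24 ± 0.07. Of the exon bases of GATC, 39.1% overlap SRSF9 on the opposite strand and 8.53% overlap AL021546.1 on the same strand. The elongation factor EEF1A1, which brings charged tRNAs to the cytosolic ribosome, rose from 7352 ± 86.0 to 8637 ± 452.4 CPM (0.23 ± 0.05). Its mitochondrial counterpart TUFM changed by 0.11 ± 0.04 (adjusted p = 0.0407) and did not pass when any of 5 libraries was left out, control 3 being the exception. GATB, at 0.16 ± 0.07 (adjusted p = 0.0596), did not pass, nor did QRSL1, MTFMT, SEPSECS, TRNT1 and DTD1, which lay between −0.08 and 0.06.

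Of a list of 10 genes of the amino acid response, 2 rose, 6 fell and 2 did not pass, beside 24.1% and 26.4% of all genes that rose and fell, with a median of −0.17. With library size only or without control 3, 5 fell. DDIT3, a stress transcription factor, was at 27.7, 25.04 and 27.3 CPM in the controls and at 16.8, 16.1 and 17.2 CPM in IRF1shRNA, a log2 fold change of −0.68 ± 0.06 (adjusted p = 9.93e-08), and the groups were far apart. Of the exon bases of DDIT3, 31.6% overlap MARS and MBD6 on the opposite strand and 8.03% overlap AC022506.1 on the same strand. TRIB3, its target, and PSAT1, of serine synthesis, both had log2 fold changes of −0.43, PHGDH, the first enzyme of serine synthesis, −0.32, and SESN2 −0.18. ATF4 itself went from 386.3 ± 9.33 to 348.0 ± 5.15 CPM (−0.15 ± 0.04, adjusted p = 0.00511).

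The 2 that rose were SLC7A11, the cystine transporter, from 56.2 ± 2.79 to 86.2 ± 2.51 CPM (0.62 ± 0.05, adjusted p = 5.39e-09), and EIF2AK4, which encodes GCN2, the sensor of uncharged tRNA (0.23 ± 0.05, adjusted p = 3.06e-04). ASNS and CHAC1 did not pass, at −0.17 ± 0.14 and 0.05 ± 0.08. ASNS was near 2 CPM, with 44.56% of its exon bases shared with another gene on the same strand. SESN2 did not pass with library size only or without control 3.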

How the data were processed

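RNA from 6 BT-549 cultures was sequenced after TruSeq Stranded mRNA preparation. What the authors deposited are raw counts for each gene symbol, without normalization. Per the submitters' processing notes, CASAVA 1.8.2, STAR 2.7.9a, featureCounts, DESeq2 1.24.0 and GRCh38.p7 were named, while the strand and pair settings and the annotation release are not given in the sources used here. Among values of 2 to 11 counts, 72.1% to 75.2% per library were even, as when mates of a pair are counted separately, so halved counts were run as an alternative.

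Counts were fitted with edgeR 4.0.16 (R 4.3.3, quasi-likelihood test, TMM, filterByExpr with a minimum count of 10), with group as the single factor. Benjamini-Hochberg adjustment covered the 18851 genes tested, and the threshold was 0.05. The SE is the log2 fold change divided by the square root of F. Exon lengths, overlaps and gene coordinates came from GENCODE release 29 (GRCh38), matched by gene symbol for all 37 members. Older symbols were linked to current ones by Ensembl identifier, and start windows came from RefSeq (GRCh38.p14). The floor was 3 counts, which covers counting error only. Scripts were tested on simulated data.

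Members, lists and the rule for naming genes were chosen with earlier results of these data known. By that rule, values in every library are given for members with an absolute log2 fold change of at least 0.30 past the threshold, for WARS, WARS2, GARS and KARS, for the highest and lowest mean CPM in each compartment, and for members with a library 1.5 times away from the others of its group. The last applied only to VARS2. The values of 1 mitochondrial member and of 1 interferon gene are not reported here, and the member stays in the counts, sums and medians. Replicate numbers are shared by the groups, but deviations of same-numbered samples correlated at −0.0543, 0.0435 and 0.0731, so the numbers were not taken as pairs. Alternatives were DESeq2 1.42.0, 3 other scalings (upper quartile, size factors of DESeq2, or the library size alone), dropping the filter, the replicate block, halved counts, a threshold of 0.01 and leaving out each library.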

Additional observations from a re-analysis of the deposited data

How the results depend on the processing

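The log2 fold changes of IRF1 and WARS kept their direction and passed the test under every alternative run, with WARS between −0.66 and −0.57, and so did EPRS, RARS, QARS, LARS, IARS and FARSB. Of the 19 members that passed, between 15 (without control 2) and 19 still passed under each alternative. The count of cytosolic members that fell, 2, became 1 with upper quartile scaling, with library size only and at a threshold of 0.01, and was between 1 and 2 when single libraries were left out, since NARS then did not pass. The median of the cytosolic members was 0.16 with library size only. The samples share only a number: the fit with the replicate block kept 19 of the 19 members, with a cytosolic median of 0.11 and a WARS log2 fold change of −0.62, and changed no call of a member. No scaling moved the median of all genes by more than 0.0513.

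Members near 0 turned in sign without passing the test, and the cause was not tested. The median of all genes shifted by 0.0513 with library size only and by 0.0438 with upper quartile scaling. With library size only and upper quartile scaling respectively, the log2 fold changes were 0.0315 and 0.0250 for DARS, 0.0355 and 0.0291 for GARS, 0.0114 and 0.0040 for TARS2, 0.0333 and 0.0266 for WARS2, 0.0408 and 0.0341 for YARS, and 0.05004 and 0.0414 for SARS2. SARS2 was also at 0.0013 with DESeq2, 0.0027 with DESeq2 size factors and 0.0178 with halved counts. Among the partner genes, MTFMT was at −0.0016 and QRSL1 at −0.00077 without the filter, and MTFMT at −0.00073 with the replicate block.

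When single libraries were left out, the values ran from −0.0864 to 0.0125 for TARS2, −0.100 to 0.0667 for SARS2, −0.0262 to 0.0023 for YARS, −0.0080 to 0.0271 for CARS2, −0.0536 to 0.0175 for GARS, −0.0718 to 0.0174 for WARS2 and −0.0816 to 0.0297 for DARS. They ran from −0.0245 to 0.104 for CHAC1, −0.0331 to 0.0377 for MTFMT, −0.0072 to 0.125 for SEPSECS and −0.0289 to 0.0217 for QRSL1. Depth limits VARS2, which had at most 2 counts in a library, and SARS2, with 101 to 370 counts.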
